A study of Mus musculus with 4 samples.

Results

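Solute carriers are membrane proteins that move small molecules, and the genes described here are the 196 whose symbol is an Slc family number and letter code and whose transcript reached 1 FPKM (fragments per kilobase of transcript, scaled to library size, as deposited) in at least 2 of the 4 libraries. Slc34a2, Slc12a2 and Slc2a1 were left out by name. The 196 members were selected out of 382 Slc genes in the table. They belong to 45 of its 54 Slc families, and 183 Slc genes stayed under the FPKM rule. The members were chosen by their measured FPKM, so their levels are a description with no test. In all, 11055 of the 22565 genes of the table pass the same FPKM rule.

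The libraries are RNA from alveolar epithelial type II (AT2) cells, which make pulmonary surfactant, isolated by flow cytometry from untreated mice aged 6 months. The KO group has 2 libraries; KO replicate 1 is labelled Fbxo45 knockout and KO replicate 2 carries an Fbxo46 knockout genotype label, although both titles say KO and the protocol speaks only of Fbxo45-cKO mice. The WT group has 2 wild-type libraries. The labels give neither a Cre line nor the deleted part of the gene. Nor do they state that replicates come from different animals, and the p-values below then cover only library-to-library variation, some of it possibly technical. Fbxo45 had 4.41 and 7.58 FPKM in the libraries labelled KO, against 4.604 and 5.91 FPKM in the WT libraries, so its level did not set the libraries labelled KO apart, and the level of the whole gene checks nothing if only part of it is deleted. KO below therefore means labelled KO. Fbxo46 had 3.82 and 4.80 FPKM in the libraries labelled KO and 4.13 and 3.79 FPKM in the WT libraries. Throughout, values are given in the order replicate 1, replicate 2 within each group.

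All 12 AT2 markers passed the FPKM rule, and their summed level was 77705 and 111728 FPKM in the libraries labelled KO and 125890 and 119776 FPKM in the WT libraries. Most of each sum was Sftpc, with 54458 and 87684 FPKM in the libraries labelled KO and 101544 and 94984 FPKM in the WT libraries. Of the 12 markers, 6 were higher and 6 lower in KO by FPKM. The depth recovered from the deposited counts was 9507422 and 7066420 fragments in the libraries labelled KO, against 4167114 and 8200168 fragments in the WT libraries. KO replicate 1 stood apart: its 12 fast skeletal muscle markers summed to 1289 FPKM, against 9.97 FPKM in KO replicate 2 and 0.544 and 10.7 FPKM in the WT libraries, and 12 of 12 were highest there. Endothelial markers were at or near 0, with all 7 under 1 FPKM in every library and sums of 2.33 and 0.829 FPKM in the libraries labelled KO, against 1.25 and 0.545 FPKM in the WT libraries. Of 7 lymphocyte markers, 5 were listed at 0 in every library. The sums of macrophage markers were 31.7 to 35.1 FPKM, of fibroblast and smooth muscle markers 15.7 to 40.3 FPKM with the lowest in WT replicate 2, of alveolar type I markers 621 to 963 FPKM, and of club and ciliated cell markers 976 to 1484 FPKM. Single genes made most of these last sums, Ager for type I and Scgb1a1 for club and ciliated cells. The type I markers Pdpn, Rtkn2 and Hopx were at 10.8 FPKM or less. The ciliated markers Foxj1 and Ccdc39 stayed under 1 FPKM in every library, as did 5 of 7 macrophage markers. Neutrophil markers summed to 6.68 FPKM or less and red cell markers to 1.32 FPKM or less.

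Most carriers use a gradient: sodium-coupled carriers ride on the sodium gradient that the sodium-potassium pump keeps, exchangers swap ions, and others let substrates run downhill. In AT2 cells carriers bring in the choline, fatty acids, amino acids, phosphate and metals that surfactant synthesis and redox defence draw on, and they move chloride, bicarbonate and protons across the alveolar barrier. Slc25 proteins are for the most part carriers of the mitochondrial inner membrane, and the Slc35 family carries nucleotide sugars into the endoplasmic reticulum and Golgi.

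No member passed the test between groups. By limma-trend on log2(FPKM + 1) with Benjamini-Hochberg adjustment, 0 of 196 members and 0 of the 11055 genes tested had an adjusted p under 0.05, which is 0% of the genes tested, and the lowest adjusted p was 0.948 for the members and over all genes. At unadjusted p under 0.05 there were 5 members, 2.55% of the 196, against 535 genes, 4.84% of all tested. Of the 5 members, 3 were higher in KO against a background of 2.68% of genes, and 2 were lower against a background of 2.16%. By edgeR on the estimated fragments, 0 of 196 members and 0% of 11705 genes were called. At unadjusted p under 0.05 there were 7 members and 372 genes by edgeR. The share of members was then slightly above that of all genes, while by limma it was under it. Neither relation was tested. By DESeq2, 0 of 196 members were called and 7 of 15326 genes, 0.0457%, with 3 members and 279 genes at unadjusted p under 0.05. Fewer cells of a type and less RNA per cell cannot be told apart in such bulk libraries.

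As a group the carriers were centred near no difference. The median log2 difference over the 196 members was -0.0075 on the log2(FPKM + 1) scale, against 0.035 over all genes tested. There were 96 members higher and 100 lower in KO, so 49% were higher, against 54.1% of all genes. The split was 78 higher and 118 lower by edgeR, 80 and 116 by DESeq2 and 84 and 112 with TMM scaling of FPKM, and it was 105 higher and 91 lower without KO replicate 1, 80 and 116 without KO replicate 2 and 80 and 116 without WT replicate 2. No split over all genes is given for these other fits, and the 54.1% is no background for them. Differences beyond 1 on the log2 scale were seen for 4 members, 2.04%, and for 2.5% of all genes. Both KO values lay above both WT values in 21 members, 10.7%, against 20% of all genes, and both KO values lay below both WT values in 44 members, 22.4%, against 15.1% of all genes. On TMM-scaled CPM, the recovered fragments scaled to library size, the same counts were 18 members, 9.18%, above (15.7% of 11705 genes) and 42 members, 21.4%, below (17.7%). The share that lay below was thus above the background, and the share above was under it, on both measures, with no test of that difference.

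**Figure D1:**
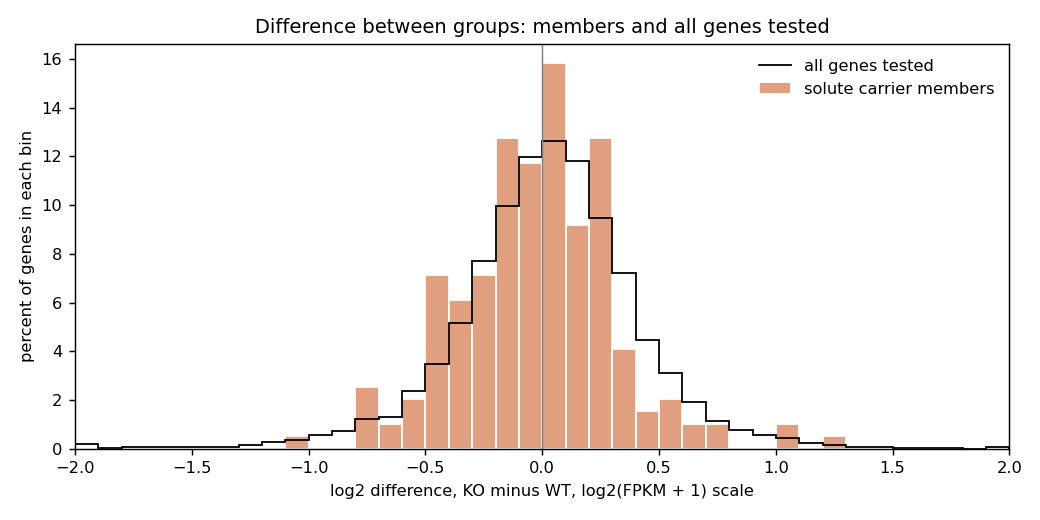
Percent of genes in bins of the log2 difference, KO minus WT, on the log2(FPKM + 1) scale (x axis, 0.1 wide; values beyond 2 in either direction are put in the end bins) for the 196 members (bars) and the 11055 genes tested (line). Both are centred near 0, with medians of -0.0075 for members and 0.035 for all genes.

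The levels of the carriers were spread widely. Their summed FPKM was 3646 and 3840 in the libraries labelled KO, against 3782 and 3668 in the WT libraries. The 10 most abundant members held 32.7% and 33.1% of it in the libraries labelled KO and 30.5% and 31.5% in the WT libraries. Of the 196, 6 had a mean of 100 FPKM or more, 17 a mean of 50 or more, and 109 a mean under 10 FPKM. In all 4 libraries 173 members reached 1 FPKM, in 3 of them 17 did, and in only 2 of them 6 did. Slc3a1 passed the rule through the libraries labelled KO alone and Slco4a1 through the WT libraries alone, so a difference between groups was built into the choice of those 2 members.

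**Figure D2:**
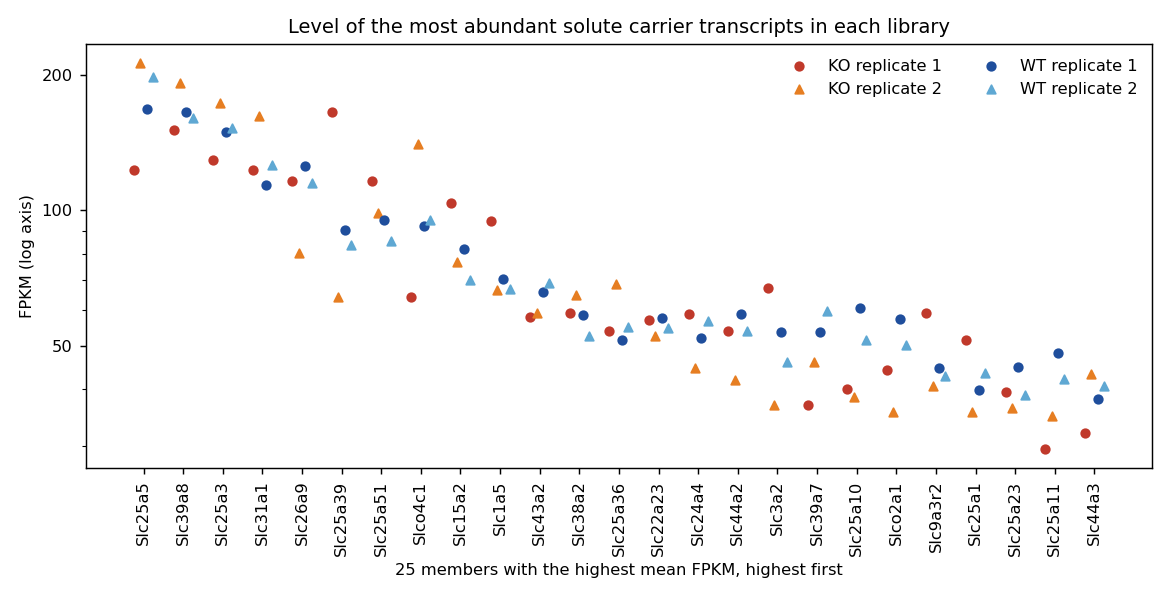
FPKM of the 25 members with the highest mean FPKM (y axis, log scale) in KO replicates 1 and 2 and WT replicates 1 and 2 (points, each a library). Slc25a5, Slc39a8, Slc25a3 and Slc31a1 lead, and KO replicate 1 and KO replicate 2 lie furthest apart for Slc25a39 and Slco4c1.

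The most abundant member was Slc25a5, the ADP/ATP carrier that exports ATP from mitochondria in most tissues, with 123 and 212 FPKM in the libraries labelled KO, against 168 and 198 FPKM in the WT libraries. Both WT values lay between the KO values. Slc39a8, an importer of zinc and manganese known in lung epithelium, had 151 and 192 FPKM in the libraries labelled KO, against 165 and 160 FPKM in the WT libraries, and again the groups overlapped. Slc26a9, an epithelial chloride channel and transporter of the lung and stomach, had 117 and 80.4 FPKM in the libraries labelled KO, against 125 and 115 FPKM in the WT libraries.

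The promoters of these 3 members and of Slc3a1, the member with the smallest p, are shown because their letter make-up differs. Each window runs from 250 bases before to 50 bases after the gene's start, from RefSeq on the build GRCm38.p6, on the plus strand, 5' to 3': chrX:36795347-36795646 (Slc25a5), chr3:135825029-135825328 (Slc39a8), chr1:131743772-131744071 (Slc26a9) and chr17:85028097-85028396 (Slc3a1). Capitals mark GGGCGG, the letters of a GC box, or its reverse complement CCGCCC, and TATAAA, those of a TATA box, or its reverse complement TTTATA. The last 2 overlap in TTTATAAA.
Slc25a5: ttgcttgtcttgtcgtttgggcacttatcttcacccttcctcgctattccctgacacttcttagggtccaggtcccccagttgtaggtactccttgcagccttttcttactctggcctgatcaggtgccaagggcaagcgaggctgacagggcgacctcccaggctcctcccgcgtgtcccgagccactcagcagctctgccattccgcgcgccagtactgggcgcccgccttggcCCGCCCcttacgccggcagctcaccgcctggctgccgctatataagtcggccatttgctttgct
Slc39a8: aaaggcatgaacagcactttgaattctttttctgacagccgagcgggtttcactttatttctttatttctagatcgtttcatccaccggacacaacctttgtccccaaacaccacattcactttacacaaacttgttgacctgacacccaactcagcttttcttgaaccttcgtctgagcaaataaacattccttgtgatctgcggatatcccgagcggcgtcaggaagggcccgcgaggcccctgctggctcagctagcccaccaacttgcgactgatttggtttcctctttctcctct
Slc26a9: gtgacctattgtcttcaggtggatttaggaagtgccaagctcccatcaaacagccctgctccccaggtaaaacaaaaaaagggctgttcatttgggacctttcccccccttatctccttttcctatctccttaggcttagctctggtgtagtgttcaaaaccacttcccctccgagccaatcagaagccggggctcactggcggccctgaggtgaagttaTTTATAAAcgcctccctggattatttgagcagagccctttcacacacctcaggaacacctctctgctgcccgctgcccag
Slc3a1: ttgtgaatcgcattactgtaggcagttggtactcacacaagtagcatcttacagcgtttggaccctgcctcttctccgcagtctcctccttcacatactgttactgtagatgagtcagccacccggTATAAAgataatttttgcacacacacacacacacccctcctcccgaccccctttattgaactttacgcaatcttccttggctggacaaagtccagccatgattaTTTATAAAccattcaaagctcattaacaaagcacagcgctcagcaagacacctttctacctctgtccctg

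The Slc25a5 window holds 1 GGGCGG on either strand and no exact TATAAA, although the near match tatataag occurs in it. The Slc39a8 window holds neither GGGCGG nor TATAAA. The Slc26a9 and Slc3a1 windows hold 2 and 3 TATAAA on either strand and no GGGCGG. RefSeq promoters were matched for 152 of the 196 members. GGGCGG on either strand was present in 110 of the 152, 72.4%, in 66.7% of the 8294 promoters of tested genes and in 35.9% of all 27025 promoters. Of the 30 mitochondrial carrier promoters, 27 held it, 90%. The median G and C share was 60.8% in those 30, 62.5% in the other 122 members, 61.3% in the tested genes and 52.7% in all promoters. TATAAA on either strand was present in 12 of the 152, 7.89%, in 6.34% of the promoters of tested genes, in 14.2% of all promoters and in none of the 30 mitochondrial ones. A match of letters is a description and not a binding site.

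The mitochondrial Slc25 carriers, 38 members of 47 Slc25 genes, formed the most abundant group. Their summed level was 990 and 1012 FPKM in the libraries labelled KO, against 976 and 982 FPKM in the WT libraries, so both KO sums lay just above both WT sums. Of the 38, 20 were higher and 18 lower, with a median log2 difference of 0.0077 by FPKM and -0.073 by edgeR on the estimated fragments. The sign of the median also turned between these measures for the chloride and bicarbonate group, 0.056 by FPKM and -0.017 by edgeR, and for the phosphate group, 0.099 and -0.058. Leaving out one of the KO libraries turned the sign of the median in the chloride and bicarbonate, monocarboxylate, mitochondrial, nucleoside, nucleotide sugar, phosphate, vesicular, vitamin and metal groups. The phosphate carrier Slc25a3 had 129 and 174 FPKM in the libraries labelled KO and 149 and 153 FPKM in the WT libraries. Slc25a51, the carrier of NAD+ into mitochondria, had 117 and 98.9 FPKM in the libraries labelled KO, against 95.1 and 85.6 FPKM in the WT libraries. Both KO values of Slc25a51 were above both WT values, with a log2 difference of 0.25 ± 0.20 (SE).

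Slc25a10, the dicarboxylate carrier that exchanges malate and succinate for phosphate, had 40.1 and 38.5 FPKM in the libraries labelled KO, against 60.7 and 51.6 FPKM in the WT libraries. The 2 groups did not overlap, and the CPM values gave the same order, 80.6 and 78.1 CPM in the libraries labelled KO against 117 and 105 CPM in the WT libraries. The log2 difference was -0.50 ± 0.20 (SE; limma unadjusted p = 0.047, adjusted p = 0.948). Slc25a11, the 2-oxoglutarate-malate carrier of the malate-aspartate shuttle, had 29.5 and 34.9 FPKM in the libraries labelled KO, against 48.1 and 42.2 FPKM in the WT libraries, again with no overlap (log2 -0.48 ± 0.21). Slc25a17, a peroxisomal carrier of coenzyme A and related cofactors, had 27.01 and 33.4 FPKM in the libraries labelled KO, against 24.2 and 22.7 FPKM in the WT libraries (log2 0.35 ± 0.22). None of the 3 passed the adjusted threshold of 0.05. Slc25a38, a glycine carrier needed for haem synthesis, had 6.69 and 8.76 FPKM in the libraries labelled KO, against 10.4 and 11.8 FPKM in the WT libraries (log2 -0.48 ± 0.25). By CPM it overlapped, with 11.7 and 16.3 in the libraries labelled KO and 14.9 and 16.3 in the WT libraries, and an edgeR difference of -0.17.

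Slc25a1, the citrate carrier that supplies cytosolic acetyl-CoA for lipid synthesis, had 51.5 and 35.7 FPKM in the libraries labelled KO and 39.9 and 43.6 FPKM in the WT libraries, while its CPM was 54.2 and 49.0 in the libraries labelled KO and 66.5 and 68.8 in the WT libraries. Its groups overlapped in FPKM and stood apart in CPM. Slc25a12, an aspartate-glutamate carrier, went the other way: 15.8 and 12.03 FPKM in the libraries labelled KO, against 9.80 and 8.59 FPKM in the WT libraries, but 28.5 and 29.6 CPM in the libraries labelled KO and 28.8 and 30.1 CPM in the WT libraries. Its limma difference of 0.54 on FPKM became -0.029 with edgeR on the estimated fragments.

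Slc25a4, the ADP/ATP carrier that predominates in muscle and heart, had 50.1 and 26.7 FPKM in the libraries labelled KO, against 27.5 and 29.8 FPKM in the WT libraries. KO replicate 1 alone was high, the library in which the 12 fast skeletal muscle markers summed to 1289 FPKM. Among the Slc genes under the rule, 2 that reached 1 FPKM in KO replicate 1 stayed under 0.5 FPKM in the other libraries, and they were chosen after their values were seen. Slc2a4, the insulin-responsive glucose transporter of muscle and fat, had 2.57 and 0 FPKM in the libraries labelled KO and 0.169 and 0.2 FPKM in the WT libraries. Slc16a3, the lactate exporter of glycolytic muscle, had 2.44 FPKM in KO replicate 1 and was listed at 0 in KO replicate 2 and in both WT libraries. The part of the muscle markers in these values was not tested. KO replicate 2 also had 2 Slc genes that it alone showed by the same limits, namely Slc25a18 (FPKM of 0.133 and 1.04 in KO) and Slc7a3 (FPKM of 0 and 1.61 in KO), and no WT library had one.

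Carriers of zinc, iron, copper, manganese and magnesium, 23 members, summed to 545 and 673 FPKM in the libraries labelled KO, against 593 and 605 FPKM in the WT libraries; 9 were higher and 14 lower. Slc31a1, the plasma membrane copper importer, had 123 and 162 FPKM in the libraries labelled KO, against 114 and 126 FPKM in the WT libraries. Slc11a2, the proton-coupled iron importer, had 27.1 and 27.1 FPKM in the libraries labelled KO, against 20.6 and 26.1 FPKM in the WT libraries, but 57.2 and 79.0 CPM in the libraries labelled KO and 73.3 and 77.7 CPM in the WT libraries. The groups of Slc11a2 stood apart by FPKM and overlapped by CPM. Those of Slc31a1 overlapped by FPKM, while on TMM-scaled CPM both KO values lay above both WT values. Slc40a1, the iron exporter ferroportin, was under the rule with 0.282 and 0.114 FPKM in the libraries labelled KO and 0 and 0.0314 FPKM in the WT libraries.

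Zinc importers of the Slc39 family, 11 members, were 5 higher and 6 lower, and zinc exporters of the Slc30 family, 7 members, were 2 higher and 5 lower. Slc39a4, the intestinal-type zinc importer, had 20.1 and 23.8 FPKM in the libraries labelled KO, against 33.4 and 28.4 FPKM in the WT libraries, with no overlap and a log2 difference of -0.48 ± 0.22. Slc39a7, a zinc channel of the endoplasmic reticulum, had 36.9 and 46.1 FPKM in the libraries labelled KO, against 53.8 and 59.7 FPKM in the WT libraries. Its CPM was 99.5 and 111 in the libraries labelled KO and 107 and 112 in the WT libraries, and 77.8% of its exon bases are shared in sequence with Gm20427, so its level is uncertain. Its groups stood apart by FPKM and overlapped by CPM. Slc39a10, a plasma membrane zinc importer, had 8.32 and 6.08 FPKM in the libraries labelled KO, against 4.39 and 5.59 FPKM in the WT libraries (log2 0.45 ± 0.28). Slc39a14, a zinc, iron and manganese importer, had 1.61 and 3.59 FPKM in the libraries labelled KO, against 1.82 and 0.811 FPKM in the WT libraries, and the groups overlapped.

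**Figure D3:**
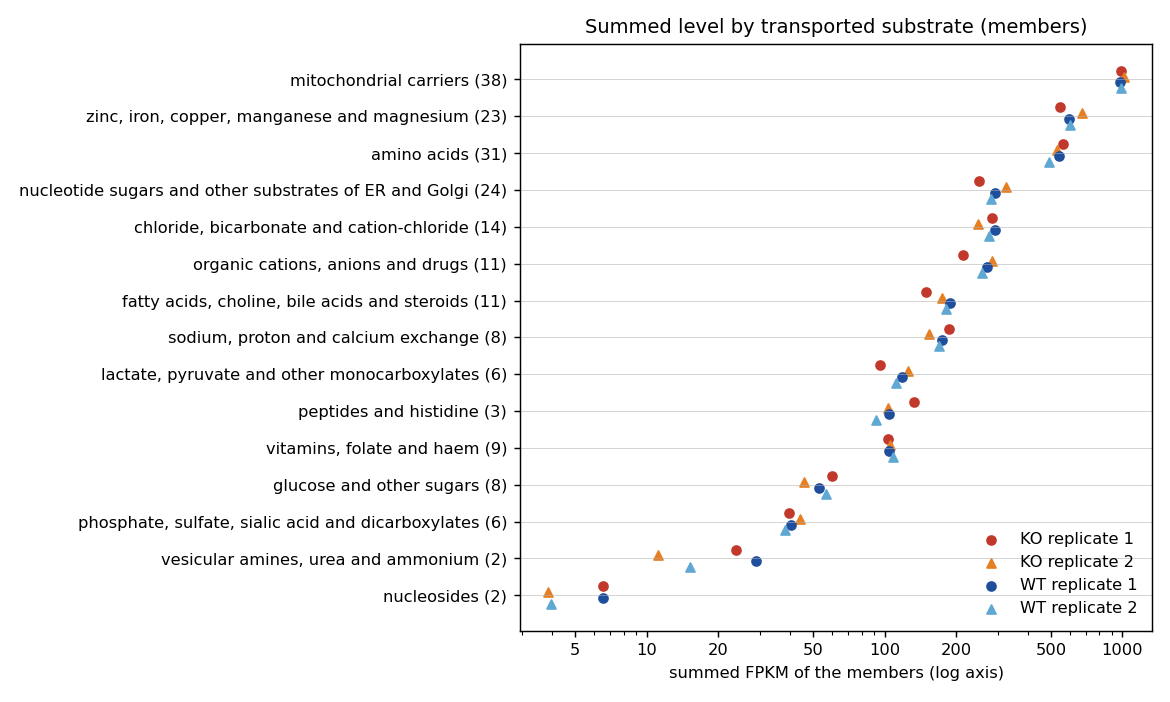
Summed FPKM (x axis, log scale) of the members in each of 15 substrate groups (y axis, number of members in brackets) in KO replicates 1 and 2 and WT replicates 1 and 2 (points). Sums of both groups overlap in every substrate group except the mitochondrial carriers, 990 and 1012 FPKM in KO against 976 and 982 in WT, and the fatty acid, choline, bile acid and steroid carriers, 150 and 174 FPKM in KO against 188 and 181 in WT.

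Fatty acid, choline, bile acid and steroid carriers, 11 members, were 2 higher and 9 lower, with a median log2 difference of -0.23. Leaving out KO replicate 1 gave a median of -0.10, and leaving out KO replicate 2 gave -0.29. Their summed level was 150 and 174 FPKM in the libraries labelled KO, against 188 and 181 FPKM in the WT libraries. In 5 of the 11 both KO values lay below both WT values, as in 15.1% of all genes, and in 2 both lay above, as in 20% of all genes. The Slc44 family of choline transporter-like proteins, whose substrate is the precursor of phosphatidylcholine, had all 4 members lower and a median log2 difference of -0.16, or 0.011 with KO replicate 1 left out and -0.34 with KO replicate 2 left out. They summed to 111 and 127 FPKM in the libraries labelled KO, against 131 and 131 FPKM in the WT libraries.

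Slc44a2, the most abundant of them, had 53.9 and 41.9 FPKM in the libraries labelled KO, against 59.0 and 54.0 FPKM in the WT libraries, a log2 difference of -0.24 ± 0.22. Slc44a1 had 19.8 and 34.99 FPKM in the libraries labelled KO, against 26.99 and 28.9 FPKM in the WT libraries, and Slc44a3 had 31.99 and 43.3 FPKM in the libraries labelled KO, against 38.2 and 40.8 FPKM in the WT libraries. Both of these overlapped between the groups. Slc27 proteins take up and activate long-chain fatty acids, and the 4 Slc27 members were 1 higher and 3 lower. Slc27a1 had 5.27 and 10.5 FPKM in the libraries labelled KO, against 15.5 and 11.5 FPKM in the WT libraries, with a log2 difference of -0.75 ± 0.36. Its groups did not overlap, in FPKM or in CPM. Slc27a3 had 0.307 and 1.28 FPKM in the libraries labelled KO, against 2.98 and 1.25 FPKM in the WT libraries. Slc27a4 had 7.81 and 6.91 FPKM in the libraries labelled KO, against 9.61 and 8.46 FPKM in the WT libraries. Slc27a2, near the threshold, had 1.34 and 1.35 FPKM in the libraries labelled KO and 1.31 and 0.962 FPKM in the WT libraries. Of these 3, by FPKM, Slc27a4 had both KO values below both WT values, Slc27a2 had both above, and Slc27a3 overlapped. On TMM-scaled CPM the groups of Slc27a2 overlapped.

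Amino acid carriers, 31 members, were 20 higher and 11 lower, with a median log2 difference of 0.072 and sums of 564 and 533 FPKM in the libraries labelled KO, against 542 and 492 FPKM in the WT libraries. Slc1a5, a sodium-coupled glutamine carrier, had 95.0 and 66.6 FPKM in the libraries labelled KO, against 70.5 and 66.9 FPKM in the WT libraries. Slc43a2, a carrier of large neutral amino acids, had 58.0 and 59.1 FPKM in the libraries labelled KO and 65.8 and 69.0 FPKM in the WT libraries. Slc38a2, a sodium-coupled carrier of small neutral amino acids that amino acid shortage induces, had 59.3 and 64.8 FPKM in the libraries labelled KO, against 58.6 and 52.5 FPKM in the WT libraries. Slc6a14, a broad amino acid carrier of lung epithelium, had 19.7 and 31.6 FPKM in the libraries labelled KO and 21.5 and 21.1 FPKM in the WT libraries. Of these 4, by FPKM, Slc38a2 had both KO values above both WT values, Slc43a2 had both below, and Slc1a5 and Slc6a14 overlapped. On TMM-scaled CPM the groups of Slc43a2 overlapped, with an edgeR difference of -0.046.

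Slc3a2 is the heavy chain that brings light chains such as Slc7a5 to the membrane, and it had 67.3 and 37.04 FPKM in the libraries labelled KO, against 53.8 and 46.01 FPKM in the WT libraries. Slc7a5 had 9.19 and 7.78 FPKM in the libraries labelled KO, against 14.8 and 9.96 FPKM in the WT libraries (log2 -0.47 ± 0.28). Slc3a2 overlapped between the groups. Slc7a5 did not by FPKM but did by TMM-scaled CPM, with an edgeR difference of -0.24. The light chains Slc7a11, of the cystine exchanger, and Slc7a8 were under the rule. Slc7a11 had 0.0368 and 0.134 FPKM in the libraries labelled KO and 0.138 and 0.133 FPKM in the WT libraries. Slc7a8 had 0 and 0.19 FPKM in the libraries labelled KO and 0 and 0.0522 FPKM in the WT libraries.

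Slc3a1, the heavy chain of the cystine and dibasic amino acid carrier (chromosome 17, 85028376 to 85064236, plus strand, GRCm38), had 3.43 and 2.47 FPKM in the libraries labelled KO, against 0.746 and 0.993 FPKM in the WT libraries. The fragments estimated behind these values were 90 and 43 in the libraries labelled KO and 8 and 21 in the WT libraries. The log2 difference was 1.07 ± 0.34 (SE; limma unadjusted p = 0.0198, adjusted p = 0.948). The edgeR difference was 1.76 (unadjusted p = 0.0128, adjusted p = 0.999). Both KO values lay above both WT values, as the selection through the libraries labelled KO alone requires. Of its exon bases, 26.5% overlap Prepl on the other strand, both share a locus in the deposited table, and whether the counting used strand is not stated. Slc1a2, a glutamate carrier best known in astrocytes (chromosome 2, 102658659 to 102790784), had 7.35 and 19.04 FPKM in the libraries labelled KO, against 5.48 and 3.88 FPKM in the WT libraries. Its log2 difference was 1.20 ± 0.45 (limma unadjusted p = 0.0383, adjusted p = 0.948), while its CPM of 27.98 and 24.3 in the libraries labelled KO and 18.7 and 20.1 in the WT libraries gave an edgeR difference of 0.42. Both KO values of Slc1a2 lay above both WT values on each measure. Slc38a6, of the family of sodium-coupled neutral amino acid carriers, had 4.92 and 1.98 FPKM in the libraries labelled KO, against 1.44 and 1.68 FPKM in the WT libraries, also without overlap.

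Sugar carriers were few, 8 of 30 Slc genes of these families, with sums of 60.1 and 45.7 FPKM in the libraries labelled KO, against 52.8 and 56.7 FPKM in the WT libraries. Slc50a1, a sugar carrier of the SWEET family, led with 36.8 and 22.4 FPKM in the libraries labelled KO, against 25.9 and 28.8 FPKM in the WT libraries. Slc45a4 (chromosome 15, 73577424 to 73645762) had 5.43 and 5.61 FPKM in the libraries labelled KO, against 8.61 and 11.7 FPKM in the WT libraries. Its groups stood apart, also at 23.1 and 29.4 CPM in the libraries labelled KO against 39.1 and 40.9 CPM in the WT libraries, with a log2 difference of -0.76 ± 0.26 (limma unadjusted p = 0.0279, adjusted p = 0.948). Slc5a6, a sodium-coupled carrier of biotin and pantothenate that the family number places here (chromosome 5, 31036036 to 31048924), had 5.81 and 3.61 FPKM in the libraries labelled KO, against 1.30 and 2.03 FPKM in the WT libraries. Its log2 difference was 1.09 ± 0.35 (limma unadjusted p = 0.0215, adjusted p = 0.948). By CPM it had 9.47 and 4.95 in the libraries labelled KO and 4.56 and 5.24 in the WT libraries, which overlap, and its locus in the table is shared with Atraid.

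Chloride, bicarbonate and cation-chloride members, 14 in number, were 8 higher and 6 lower. Slc4a2, an anion exchanger of chloride for bicarbonate, had 34.6 and 29.7 FPKM in the libraries labelled KO and 28.8 and 32.2 FPKM in the WT libraries. Slc4a4, a sodium-bicarbonate cotransporter, had 18.96 and 14.4 FPKM in the libraries labelled KO, against 11.8 and 13.96 FPKM in the WT libraries (log2 0.34 ± 0.25). Slc4a7, of the same kind, had 1.85 and 3.54 FPKM in the libraries labelled KO and 1.59 and 2.30 FPKM in the WT libraries. Slc12a7, a potassium-chloride exporter, had 5.46 and 6.24 FPKM in the libraries labelled KO, against 7.55 and 6.60 FPKM in the WT libraries. Both KO values lay above both WT values for Slc4a4 and below them for Slc12a7, while Slc4a2 and Slc4a7 overlapped. The Slc4 family had 6 members, all higher in KO by FPKM, of which Slc4a2 was at -0.033 by edgeR. Slc4a1ap, counted among them, is named for binding an anion exchanger and is not itself a carrier.

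Sodium, proton and calcium exchangers, 8 members, were 3 higher and 5 lower. Slc24a4, a potassium-dependent sodium-calcium exchanger, had 58.8 and 44.7 FPKM in the libraries labelled KO and 52.2 and 56.7 FPKM in the WT libraries. Slc9a3r1 and Slc9a3r2 are scaffolds that anchor exchangers and receptors. Slc9a3r1 had 18.9 and 15.6 FPKM in the libraries labelled KO, against 20.1 and 19.2 FPKM in the WT libraries. Slc9a3r2 had 59.1 and 40.8 FPKM in the libraries labelled KO and 44.7 and 42.8 FPKM in the WT libraries. Of these 3, only Slc9a3r1 had groups that did not overlap by FPKM, with KO lower, and its groups overlapped on TMM-scaled CPM.

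Organic ion carriers, 11 members, were 5 higher and 6 lower, and in 5 of them both KO values lay below both WT values, as in 15.1% of all genes. Slco4c1, an organic anion carrier, had 64.2 and 141 FPKM in the libraries labelled KO, against 92.5 and 95.5 FPKM in the WT libraries, with both WT values between the KO values. Slc22a23 had 57.1 and 52.5 FPKM in the libraries labelled KO and 57.7 and 54.9 FPKM in the WT libraries. Slco2a1, the prostaglandin uptake carrier that clears prostaglandin E2 in lung, had 44.2 and 35.6 FPKM in the libraries labelled KO, against 57.3 and 50.3 FPKM in the WT libraries (log2 -0.43 ± 0.21). Slco2a1 did not overlap between the groups, by FPKM or CPM. Slc22a18 had 3.85 and 6.03 FPKM in the libraries labelled KO, against 6.94 and 9.17 FPKM in the WT libraries (log2 -0.62 ± 0.31). Slco3a1 had 9.37 and 14.1 FPKM in the libraries labelled KO and 11.5 and 11.5 FPKM in the WT libraries. Slc22a18 again had both KO values below both WT values, and Slco3a1 had both WT values between the KO values.

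Nucleotide sugar and related carriers, 24 members, were 9 higher and 15 lower, summing to 250 and 325 FPKM in the libraries labelled KO, against 291 and 281 FPKM in the WT libraries. Slc35b1, which brings ATP into the endoplasmic reticulum, had 29.6 and 31.4 FPKM in the libraries labelled KO and 21.8 and 31.4 FPKM in the WT libraries. Slc35b2, the carrier of the sulfate donor PAPS into the Golgi, had 4.59 and 5.81 FPKM in the libraries labelled KO, against 10.1 and 7.69 FPKM in the WT libraries (log2 -0.67 ± 0.27). Slc35c1, the GDP-fucose carrier of the Golgi, had 8.70 and 6.23 FPKM in the libraries labelled KO, against 11.1 and 10.7 FPKM in the WT libraries. Both stood apart by FPKM with KO lower, and Slc35b2 did so by CPM as well. Slc35e4 had 5.31 and 5.85 FPKM in the libraries labelled KO, against 9.84 and 7.61 FPKM in the WT libraries. Slc35g1 had 5.71 and 9.81 FPKM in the libraries labelled KO, against 3.01 and 5.56 FPKM in the WT libraries. Slc35a4 had 21.6 and 24.8 FPKM in the libraries labelled KO, against 27.8 and 24.9 FPKM in the WT libraries, and 34.5 and 49.0 CPM in the libraries labelled KO against 61.4 and 60.2 CPM in the WT libraries. KO was lower without overlap for Slc35e4 and Slc35a4 and higher without overlap for Slc35g1.

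The 3 peptide and histidine carriers were all higher in mean, with sums of 133 and 104 FPKM in the libraries labelled KO, against 105 and 92.3 FPKM in the WT libraries. Slc15a2, the proton-coupled di- and tripeptide carrier of alveolar and airway epithelium, had 104 and 76.9 FPKM in the libraries labelled KO, against 82.2 and 70.1 FPKM in the WT libraries, and the groups overlapped. Slc15a4, a lysosomal peptide and histidine carrier, had 15.8 and 20.5 FPKM in the libraries labelled KO and 13.97 and 16.7 FPKM in the WT libraries. Monocarboxylate carriers, 6 members, were 2 higher and 4 lower. Slc16a1, which moves lactate and pyruvate, had 15.6 and 25.4 FPKM in the libraries labelled KO and 19.7 and 21.9 FPKM in the WT libraries. Slc16a7, a carrier of the same substrates, had 27.7 and 41.8 FPKM in the libraries labelled KO, against 31.3 and 33.6 FPKM in the WT libraries. Both overlapped between the groups. Slc16a11 is among the 7 with an edgeR unadjusted p under 0.05, with 5.77 and 6.86 FPKM in the libraries labelled KO, against 17.7 and 6.59 FPKM in the WT libraries, which overlapped. By CPM it had 4.94 and 6.65 in the libraries labelled KO, against 18.2 and 10.1 in the WT libraries, without overlap.

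Phosphate and related anion carriers, 6 members, were 4 higher and 2 lower. Slc20a1, a sodium-phosphate cotransporter, had 14.7 and 16.5 FPKM in the libraries labelled KO, against 14.2 and 13.4 FPKM in the WT libraries, and Slc20a2, its relative, had 5.33 and 5.90 FPKM in the libraries labelled KO, against 6.28 and 6.17 FPKM in the WT libraries. Slc17a5, the lysosomal sialic acid exporter, had 9.59 and 12.3 FPKM in the libraries labelled KO and 11.2 and 10.1 FPKM in the WT libraries. By FPKM, KO was higher without overlap for Slc20a1 and lower without overlap for Slc20a2, and Slc17a5 overlapped. On TMM-scaled CPM the groups of Slc20a1 overlapped, with an edgeR difference of 0.033. Vitamin and haem carriers, 9 members, were 5 higher and 4 lower. Slc48a1, a haem carrier of endosomes and lysosomes, had 33.02 and 26.2 FPKM in the libraries labelled KO, against 36.5 and 34.3 FPKM in the WT libraries. Slc23a2, a vitamin C carrier, had 30.02 and 25.8 FPKM in the libraries labelled KO and 26.97 and 31.9 FPKM in the WT libraries. Slc52a3, a riboflavin carrier, had 16.8 and 18.3 FPKM in the libraries labelled KO, against 14.05 and 14.2 FPKM in the WT libraries, with no overlap and a log2 difference of 0.29 ± 0.21. Slc23a1, another vitamin C carrier, had 3.14 and 4.94 FPKM in the libraries labelled KO and 1.74 and 3.21 FPKM in the WT libraries. By FPKM, Slc48a1 had both KO values below both WT values, and Slc23a2 and Slc23a1 overlapped. On TMM-scaled CPM the groups of Slc48a1 overlapped.

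The remaining groups had 2 members each. Of the nucleoside carriers, Slc29a3 had 3.60 and 3.53 FPKM in the libraries labelled KO and 3.84 and 2.74 FPKM in the WT libraries, and Slc29a1 had 2.93 and 0.331 FPKM in the libraries labelled KO and 2.69 and 1.23 FPKM in the WT libraries. Slc18b1, a vesicular polyamine carrier, had 19.7 and 8.07 FPKM in the libraries labelled KO, against 24.6 and 12.5 FPKM in the WT libraries, and Slc18a1, a vesicular monoamine carrier, had 4.06 and 3.14 FPKM in the libraries labelled KO and 4.12 and 2.71 FPKM in the WT libraries. All 4 overlapped between the groups by FPKM. By CPM Slc18b1 had 19.04 and 21.9 in the libraries labelled KO, against 25.2 and 30.9 in the WT libraries, without overlap.

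**Figure D4:**
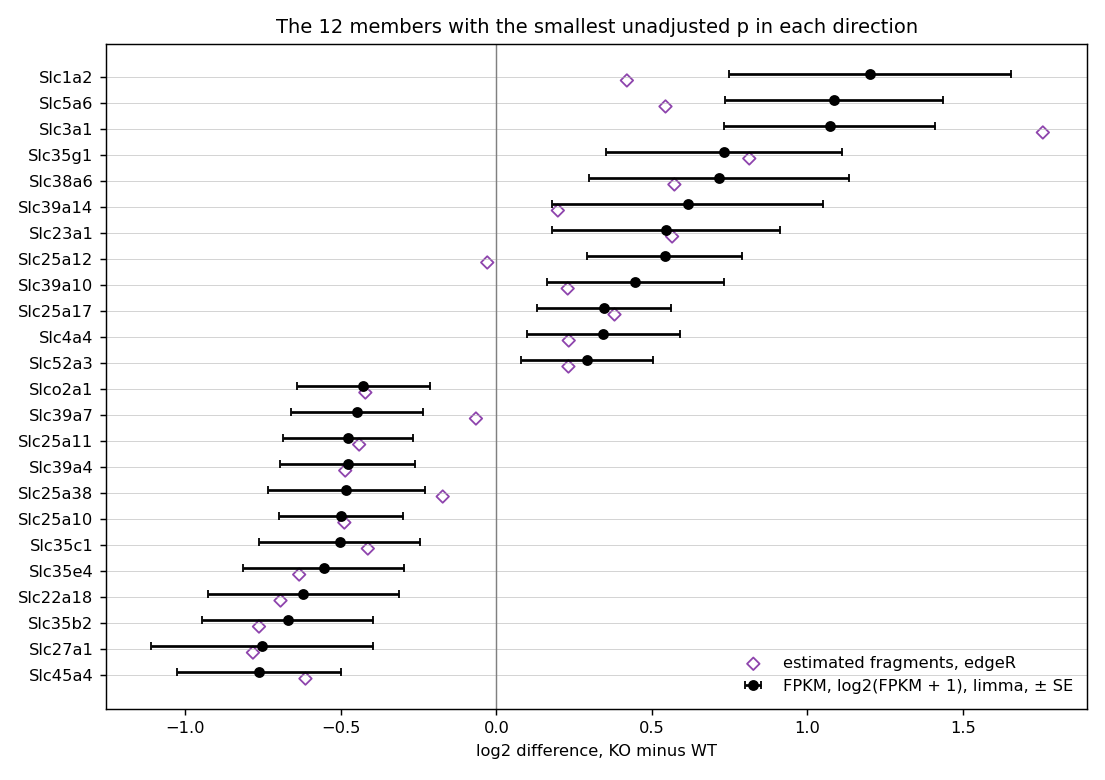
Log2 difference, KO minus WT, of the 12 members with the smallest unadjusted limma p in each direction (y axis), by FPKM with its SE (filled points, log2(FPKM + 1), limma) and by estimated fragments (open diamonds, edgeR). Both measures have the same sign for 23 of the 24; Slc25a12 has 0.54 by FPKM and -0.029 by fragments.

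The 24 members with the smallest p, 12 in each direction, were the same sign by both measures in 23 of 24 cases. They were chosen by p from these same data, so that count is no support. Over all 196 members, 162 had the same sign. Of the 5 members at unadjusted p under 0.05 by limma, 3 were also under it by edgeR, namely Slc3a1, Slc45a4 and Slc25a10. Slc3a1 is a member through its KO values alone, so its place in both counts is no support. Where both KO values lay below both WT values, 28 of the 44 members did so by CPM as well, and where both lay above, 13 of the 21 did. No share over all genes is given for these counts or for the 162 members of the same sign. They therefore do not set the members apart from other genes. The ratio of FPKM to CPM differed between libraries by 1.5 times or more in 35 of the 173 members that had at least 20 estimated fragments in every library, 20.2%, close to the 19.3% of 9488 genes that passed the same minimum.

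**Figure D5:**
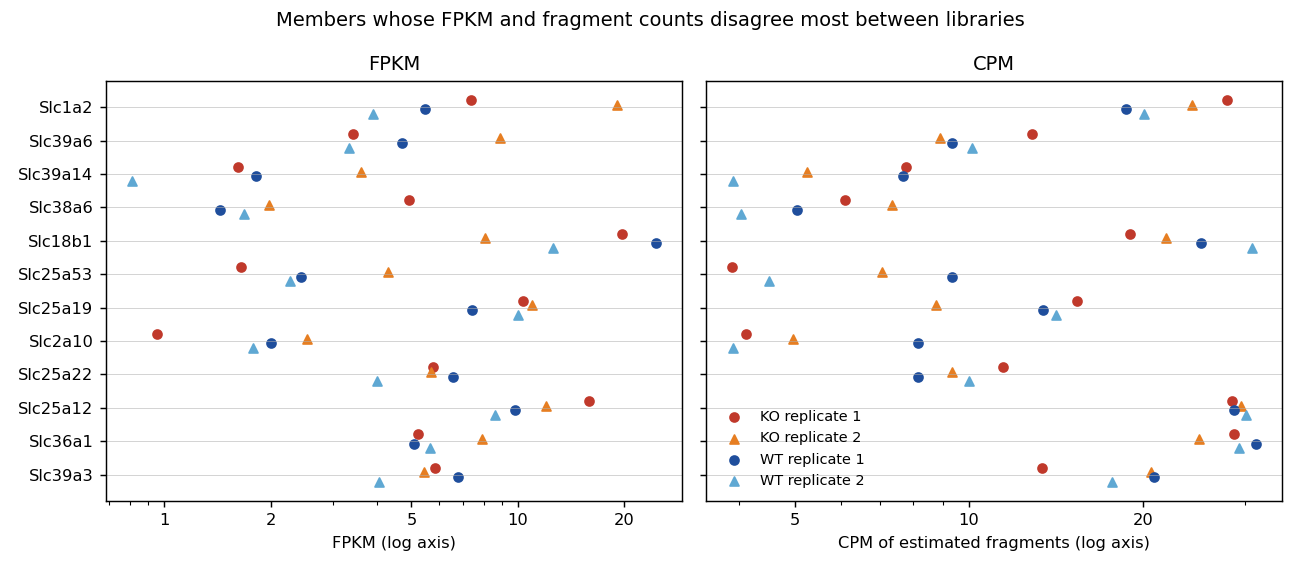
FPKM (left, log scale) and CPM of estimated fragments (right, log scale) of the 12 members, with at least 20 estimated fragments in every library, whose FPKM-to-CPM ratio differs most between libraries, in KO replicates 1 and 2 and WT replicates 1 and 2. Slc1a2 ranges from 3.88 to 19.04 FPKM and from 18.7 to 27.98 CPM.

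The libraries labelled KO differed from each other more than the WT libraries did, for the members as for other genes. The median absolute log2 difference between the libraries labelled KO was 0.38 over the members and 0.41 over all genes, against 0.19 and 0.18 between the WT libraries. The KO pair was further apart in 136 of 196 members, 69.4%, against 71.5% of all genes. KO replicate 1 was the lowest of the 4 libraries in 81 members and the highest in 42. KO replicate 2 was the highest in 74 and the lowest in 52. No share over all genes is given for these counts. The median signed log2 difference, KO replicate 1 minus KO replicate 2, was -0.15 over the members and -0.047 over all genes. Slc7a6os, named for lying opposite Slc7a6 and not a carrier, had 6.09 and 0.0122 FPKM in the libraries labelled KO, against 4.18 and 5.23 FPKM in the WT libraries. Slc38a5, a carrier of glutamine and histidine, had 0.432 and 3.94 FPKM in the libraries labelled KO and 1.07 and 0.541 FPKM in the WT libraries. Slc35a3 had 7.005 and 20.9 FPKM in the libraries labelled KO and 14.1 and 13.1 FPKM in the WT libraries, and Slc43a3 had 7.20 and 7.51 FPKM in the libraries labelled KO and 8.65 and 2.84 FPKM in the WT libraries. Slc25a39, a mitochondrial glutathione carrier, had 165 and 64.1 FPKM in the libraries labelled KO, against 90.3 and 84.0 FPKM in the WT libraries, and a CPM of 142 and 102 in the libraries labelled KO, against 131 and 128 in the WT libraries.

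The members just inside the rule, by their second-highest library, were Slc38a5, Slc2a9, Slco2b1, Slc13a2 and Slc27a3 at 1.07, 1.08, 1.10, 1.26 and 1.28 FPKM. Just outside were Slc38a8, Slc26a6, Slc9a7, Slc45a3 and Slc16a9 at 0.975, 0.943, 0.917, 0.91 and 0.866 FPKM. In the table's loci 42 of the 196 members share a locus with another gene, and 15 have over 10% of their exon bases overlapped by a gene on the other strand.

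Carriers with other symbols were read from a list of 35, of which 30 were in the table and 26 tested; 0 were called by limma and 0 reached unadjusted p under 0.05. Mtch1 had 200 and 191 FPKM in the libraries labelled KO and 186 and 195 FPKM in the WT libraries, Ucp2, an uncoupling protein, had 99.4 and 170 FPKM in the libraries labelled KO, against 165 and 146 FPKM in the WT libraries, and Npc1, the lysosomal cholesterol exporter, had 124 and 113 FPKM in the libraries labelled KO, against 117 and 107 FPKM in the WT libraries. Of the 6 tested sodium pump genes, which keep the gradient that carriers use, 0 were called by limma and 1 had unadjusted p under 0.05, as did 4.84% of all genes tested; Atp1b1 had 543 and 550 FPKM in the libraries labelled KO, against 492 and 519 FPKM in the WT libraries, and Atp1b3 had 39.6 and 74.0 FPKM in the libraries labelled KO and 62.0 and 57.8 FPKM in the WT libraries. Of 13 tested accessory and scaffold genes, 0 were called and 2 had unadjusted p under 0.05, as did 4.84% of all genes tested. Bsg, the chaperone of the monocarboxylate carriers, had 256 and 292 FPKM in the libraries labelled KO and 292 and 256 FPKM in the WT libraries, and Emb, a related chaperone, had 107 and 183 FPKM in the libraries labelled KO and 129 and 149 FPKM in the WT libraries. Ezr, the scaffold ezrin, had 119 and 119 FPKM in the libraries labelled KO and 108 and 120 FPKM in the WT libraries. The 2 at unadjusted p under 0.05, named after their values were seen, are kinases. These WNK kinases, which regulate cation-chloride cotransporters, differed by FPKM more than by fragments: Wnk1 had 139 and 137 FPKM in the libraries labelled KO, against 77.9 and 82.8 FPKM in the WT libraries, a log2 difference of 0.78 by limma and 0.17 by edgeR. Wnk4 had 6.07 and 6.28 FPKM in the libraries labelled KO, against 13.8 and 15.6 FPKM in the WT libraries, a log2 difference of -1.13 by limma and -0.13 by edgeR.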

How the data were processed

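RNA-seq of sorted AT2 cells was analysed from 1 deposited table of genes. Per the submitters' processing notes, cutadapt 1.9.3, HISAT2 2.0.4, Cuffdiff 2.2.1 and Cufflinks were used on the build mm10, with settings and annotation release not stated. The deposited FPKM are the authors' own, a length- and library-scaled unit per the file headers. The deposited estimated counts are the authors' values too, and in each library are multiples of 1 constant; dividing by it made 90.9% to 92.6% of values whole within 0.05, and the fragments recovered were rounded to whole numbers before count tests.

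KO minus WT was tested on log2(FPKM + 1) by limma-trend (R 4.3.3 with limma 3.58.1), over genes with at least 1 FPKM in at least 2 of 4 libraries, adjusted by Benjamini-Hochberg at 0.05; this scale understates changes of low genes. The recovered fragments went into edgeR 4.0.16 (quasi-likelihood, TMM) and into DESeq2 1.42.0 as alternatives. A count of 0 allows up to 0.72 CPM in the shallowest library (3 fragments), for counting error only. The members, substrate groups and lists were chosen with earlier results of these data known. The text names the 10 most abundant members, the 12 of smallest p in each direction, the 2 most abundant of each substrate group, those nearest the FPKM rule, the 6 that differ most within a group, carriers studied in alveolar or lipid-making cells, and the 3 most abundant genes of each other list. Some genes that this rule names are not reported here. Positions are from GENCODE M21 (GRCm38).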

Additional observations from a re-analysis of the deposited data

How the results depend on the processing

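Alternatives moved the count of genes called from 0 to 7 with DESeq2 on the estimated counts. The number of members at unadjusted p under 0.05, 5 of 196 as reported, was 8 with TMM scaling of FPKM and 3 with DESeq2 on the estimated counts. With a filter at 5 FPKM it was 2, but only 138 members were then tested. Leaving out 1 library gave 0 to 134 genes called (134 without KO replicate 2, 3 without WT replicate 2), 2 to 41 members at unadjusted p under 0.05 (31 without KO replicate 1, 41 without KO replicate 2, 2 without either WT replicate) and 98 to 158 members whose groups do not overlap (158 without KO replicate 1, 156 without KO replicate 2, 98 without WT replicate 1, 110 without WT replicate 2). The remaining library of that group is then assumed to vary like the other group, and no member was called in any of these fits. The median log2 difference of members was -0.092 to 0.060 over these fits. Non-overlap is easier to reach when 1 library is compared with 2, so a higher count of such members is built into the fits that leave out a library. Their counts cannot be compared with the 65 members found with all 4 libraries. No share over all genes is given for these fits, at unadjusted p under 0.05 or for non-overlap. What these counts owe to the library left out was not tested, nor was the cause of the other changes.

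Among the 24 members with the smallest p, 305 of 307 values under the alternatives kept their direction. Slc25a12 turned to -0.029 with edgeR on the estimated counts and to -0.024 with DESeq2. The 24 were chosen by p from these same data, and the FPKM groups of 22 did not overlap. Leaving out a library could not turn the direction of those 22, so the count of 305 is no support. The replicate numbers of the labels share only a number: the deviations of same-numbered libraries correlated at 0.0257, and the fit with the replicate number as a block called 0 genes and had 4 members at unadjusted p under 0.05. With 2 libraries a group, small differences could not be shown, and 24 members averaged under 2 FPKM, where few fragments limit the precision.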
